A study of Mus musculus with 6 samples.

Results

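The genes described here are 10 lysosomal cathepsins, the proteases Ctsa, Ctsb, Ctsc, Ctsd, Ctsf, Ctsh, Ctsk, Ctsl, Ctss and Ctsz, chosen by gene symbol from the 55487 gene identifiers of a read count table of mouse testis. All 10 were found in the table, and all 10 passed the filter on low counts together with a total of 19826 tested genes. Polyadenylated RNA was sequenced from testes of mice at postnatal day 19, when the first wave of spermatogenesis has reached meiosis. The 6 libraries form 2 groups of 3, with testes taken from different mice. One group has the genotype control, with nothing further stated. The genotype of the second group is dsfb, which the series title writes as SFB/SFB at Hormad1&2, a pair of genes for meiotic chromosome axis proteins. The labels give neither the nature of the SFB alleles nor the strain, and they name no Cre or other transgene. The comparison asks how transcript levels in the whole testis differ between the groups.

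Cathepsins are made as inactive precursors, tagged with mannose-6-phosphate in the Golgi, carried by mannose-6-phosphate receptors to endosomes, and activated by cleavage in the acid lumen of the lysosome. Most of the family are papain-like cysteine proteases, whereas cathepsin D is an aspartic and cathepsin A a serine protease. In the testis, Sertoli cells engulf dying germ cells and residual bodies and digest them in lysosomes, and they also secrete procathepsin L. Interstitial macrophages are a further known source of cathepsins, cathepsin S above all.

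Many lysosomal genes carry an E-box with the letters CACGTG near their start, the core of the element that the transcription factors TFEB and TFE3 bind. The promoter stretches that hold these letters are shown as a description, and whether they bear on the counts was not tested. RefSeq windows (GRCm38.p6, 250 bases before to 50 after a start) were found for 8 of the 10 genes. Ctsb and Ctsh had none. The motif is a palindrome, so that a match reads the same on both strands. It was present in a window of 4 of the 8 genes (Ctsa, Ctsd, Ctsf and Ctsl) and in 7.15% of all 32851 windows, or 10.8% of 13483 tested genes with a window. The sequences run 5′ to 3′ on the strand of the gene, with the motif in capitals.
Ctsa, chr2:164833749-164833778, plus strand: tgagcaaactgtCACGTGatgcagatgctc
Ctsd, chr7:142387908-142387937, minus strand: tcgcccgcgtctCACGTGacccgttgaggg
Ctsd, chr7:142388055-142388077, minus strand: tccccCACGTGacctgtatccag
Ctsf, chr19:4855074-4855103, plus strand: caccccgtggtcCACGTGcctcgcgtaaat
Ctsl, chr13:64370739-64370768, minus strand: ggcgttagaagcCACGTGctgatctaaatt

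The motif started 245 and 98 bases before the start in Ctsd, 79 before it in Ctsf, 236 before it in Ctsl, and 12 before the second of the RefSeq starts listed for Ctsa. The same Ctsa window held a second match after its start, and the window at the first Ctsa start held none. No match was found in the windows of Ctsc, Ctsk, Ctss and Ctsz. The extended E-box TCACGTGA was in 2 of the 8 genes (Ctsa and Ctsd) and in 1.79% of tested genes with a window. The longer CLEAR palindrome, which fixes further flanking bases, was in 0 of the 8 genes and in 0.653% of tested genes with a window. Both contain the core and so always overlap it. A match is a run of letters and says nothing of binding.

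The libraries held 23983373 to 27707291 counted reads in control and 15335130 to 17306363 in dsfb. Levels are in CPM, the read count of a gene relative to the total of its library, scaled by TMM, which corrects for a few genes taking a large part of the reads. Transcript composition differed widely between the groups. The summed level of 6 pachytene spermatocyte markers was 4955 to 7101 CPM in control and 31.9 to 39.2 CPM in dsfb, and that of 10 Sertoli cell markers was 2442 to 3319 CPM in control and 5968 to 6291 CPM in dsfb. The defining Sertoli markers Sox9, Wt1 and Amh were present in every library, as the tissue label requires. Control replicate 3 stood apart, with a summed spermatid marker level of 412 CPM against 112 and 132 CPM in control replicates 1 and 2. Without that library 8 of the 10 cathepsin genes rose in place of 7. In the lists described further on, 5 of 7 tested genes of the cystatin list rose in place of 4 of 6. Also, 25 hydrolases rose in place of 23 and 9 membrane genes in place of 8. In the same setting 7 vacuolar ATPase genes rose and 8 fell in place of 5 and 7, and 9 regulators rose and 3 fell in place of 8 and 2. In whole testis, fewer cells of a type and less RNA per cell cannot be told apart.

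Cathepsin transcripts were higher in the dsfb testes. Of the 10 genes, 7 rose (Ctsa, Ctsb, Ctsd, Ctsf, Ctsk, Ctsl and Ctsz), 0 fell and 3 (Ctsc, Ctsh and Ctss) did not pass the edgeR quasi-likelihood test at an adjusted p of 0.05. Among all tested genes 30.7% rose and 36.2% fell, 66.9% in all. Every dsfb library lay above every control library for the 7 genes that rose, against 36.2% of tested genes, and below for 0 of the 10, against 38.5%. The median log2 fold change of the 10 genes was 1.14, or 2.21-fold, against 0.02 over all tested genes. At an unadjusted p under 0.05 the counts were also 7 and 0, and all 10 log2 fold changes were above 0 with edgeR, DESeq2 and limma-voom. With the libraries scaled to autosomal Sertoli markers instead, 0 rose and 2 fell (Ctsh and Ctss, both also at an unadjusted p under 0.05). That scaling moved the median of all genes by -1.11.

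**Figure D1:**
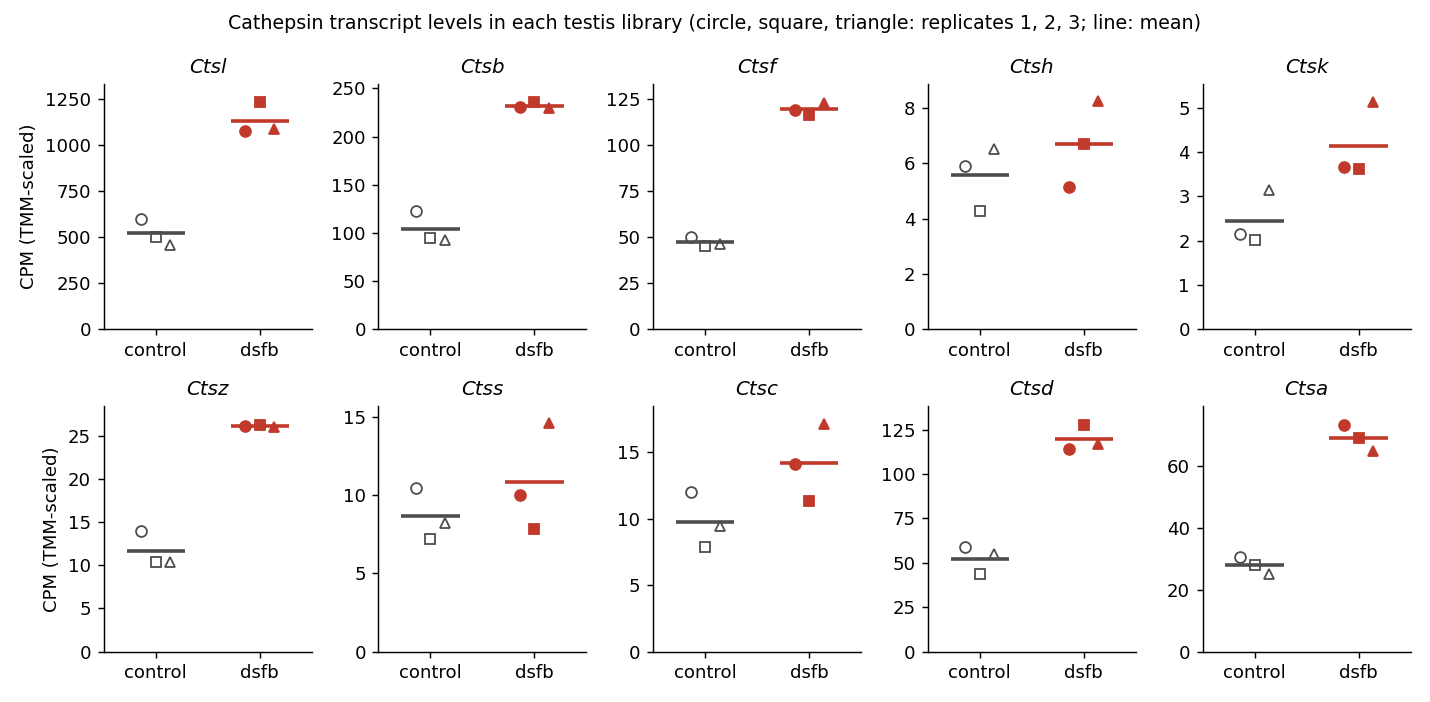
TMM-scaled CPM of the 10 cathepsin genes in each library, on linear axes that start at 0, with open grey symbols for control, filled red symbols for dsfb and a line at the mean of 3. The dsfb libraries lie above all control libraries for Ctsl, Ctsb, Ctsf, Ctsk, Ctsz, Ctsd and Ctsa, and the groups overlap for Ctsh, Ctss and Ctsc.

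The general endopeptidases of the family accounted for most of the reads. Ctsl (ENSMUSG00000021477, chromosome 13, 64359337 to 64370890, minus strand, mm10) encodes cathepsin L, an endopeptidase that Sertoli cells are known to secrete as its precursor. It was at 599, 503 and 459 CPM in the control libraries, given here and below in the order of replicates 1, 2 and 3, while the dsfb libraries held 1076, 1232 and 1087 CPM. The lowest dsfb library lay well above the highest control library. The change was 2.17-fold (95% interval 1.77 to 2.67, log2 1.12, SE 0.13, edgeR adjusted p = 0.000182).

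Ctsb (chromosome 14, 63122462 to 63145923, plus strand) encodes cathepsin B, which can also trim dipeptides from the carboxyl end of its substrates. It was at 123, 95.1 and 92.9 CPM in the control libraries and at 230, 236 and 230 CPM in the dsfb libraries. The dsfb values differed little from each other, and the control values were all lower. The rise was 2.24-fold (95% interval 1.85 to 2.72, edgeR adjusted p = 0.000109). Exons of Ctsb share 774 bases, 12.8% of their length, with Fdft1 on the opposite strand, and the sources used here do not state whether reads were counted by strand. Fdft1, a gene of cholesterol synthesis, was at 280 CPM in control and 42.9 CPM in dsfb on average and fell 6.53-fold, so its level moved in the other direction from that of Ctsb.

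Ctsf (chromosome 19, 4855130 to 4860918, plus strand) encodes cathepsin F, a papain-like protease with a long propeptide. It was at 50.2, 45.0 and 46.3 CPM in control and at 119, 116 and 123 CPM in dsfb. These were the closest replicates of the 10 genes in control, with a coefficient of variation of 5.74%. The change was 2.53-fold (95% interval 2.22 to 2.90, log2 1.34, SE 0.08, edgeR adjusted p = 8.088e-06), the largest fold change among the 10 genes.

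The aspartic and the serine protease rose by similar amounts. Ctsd (chromosome 7, 142375911 to 142388038, minus strand) encodes cathepsin D, the main aspartic protease of lysosomes. It was at 58.7, 43.5 and 54.8 CPM in control and at 114, 128 and 117 CPM in dsfb, a 2.28-fold change (95% interval 1.87 to 2.79, edgeR adjusted p = 0.000121). Ctsa (chromosome 2, 164832873 to 164841032, plus strand) encodes cathepsin A, a carboxypeptidase that also shields neuraminidase 1 and beta-galactosidase from degradation. It was at 30.4, 28.04 and 25.1 CPM in control and at 73.1, 69.0 and 64.7 CPM in dsfb. The groups were well separated for each of these genes. The change of Ctsa was 2.47-fold (95% interval 2.08 to 2.95, edgeR adjusted p = 3.62e-05). Ctsa overlaps Pltp by 495 exonic bases on the opposite strand, and Pltp itself was at 14.9 CPM in control and 23.0 CPM in dsfb. The genes that cathepsin A protects moved the same way: Neu1 rose by 1.02 and Glb1 by 0.62 on the log2 scale (edgeR adjusted p = 0.00098 and 0.00677).

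The exopeptidases divided between genes that passed and genes that did not. Ctsz (chromosome 2, 174427493 to 174439039, minus strand) encodes cathepsin Z, a carboxypeptidase. It was at 13.96, 10.4 and 10.4 CPM in control and at 26.2, 26.3 and 26.0 CPM in dsfb, a 2.25-fold rise (95% interval 1.73 to 2.93, edgeR adjusted p = 0.000499). Ctsc (chromosome 7, 88278085 to 88310888, plus strand) encodes cathepsin C, a dipeptidyl peptidase that activates the granule proteases of leukocytes. It was at 12.01, 7.89 and 9.41 CPM in control and at 14.1, 11.4 and 17.1 CPM in dsfb, and dsfb replicate 2 lay below control replicate 1. Its 1.45-fold difference (95% interval 0.999 to 2.11) did not pass (edgeR adjusted p = 0.0717). It passed without control replicate 1 (adjusted p = 0.0495) or control replicate 3 (adjusted p = 0.023).

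Ctsh (chromosome 9, 90054152 to 90076089, plus strand) encodes cathepsin H, an aminopeptidase. It was at 5.91, 4.29 and 6.54 CPM in control and at 5.13, 6.71 and 8.26 CPM in dsfb, with the groups interleaved. The 1.20-fold difference did not pass (edgeR adjusted p = 0.393, 95% interval 0.788 to 1.83). Each Ctsh value rests on 101 to 153 reads.

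Ctsk and Ctss lie in tandem on chromosome 3, beside a gene named in the dsfb genotype. Ctsk (95499256 to 95509362) and Ctss (95526786 to 95556403) are both on the plus strand and separated by 17423 bases, and Hormad1 (95559677 to 95587671) starts 3273 bases after the end of Ctss. Ctsk encodes cathepsin K, the collagen-degrading protease of osteoclasts, which is also made by fibroblasts. It was at 2.14, 2.02 and 3.15 CPM in control and at 3.66, 3.61 and 5.13 CPM in dsfb. The groups did not overlap, but control replicate 3 came close to the lower dsfb libraries. Its 1.69-fold rise (95% interval 1.08 to 2.65, edgeR adjusted p = 0.0403) was the least secure of the 7, on 46 to 95 reads per library. It no longer passed when control replicate 1 or 2 or any single dsfb library was left out (log2 0.59 to 0.86, edgeR adjusted p = 0.0603 to 0.133), with RLE scaling (log2 0.67, adjusted p = 0.0678), with all genes of at least 1 read kept (0.69, adjusted p = 0.105) and with DESeq2 (0.67, adjusted p = 0.0824). Without control replicate 3 it was kept (log2 0.96, edgeR adjusted p = 0.00335).

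Ctss encodes cathepsin S, which trims the invariant chain of MHC class II in antigen-presenting cells. It was at 10.47, 7.23 and 8.25 CPM in control and at 10.01, 7.86 and 14.6 CPM in dsfb. The groups overlapped, and dsfb replicate 3 was the highest library by a wide margin. The log2 difference of 0.32 did not pass (fold 95% interval 0.805 to 1.94, edgeR adjusted p = 0.321), and without dsfb replicate 3 it was 0.06. Hormad1, the neighbour of Ctss, was at 446, 486 and 209 CPM in control and at 217, 246 and 243 CPM in dsfb, with a log2 value of -0.69 that did not pass (edgeR adjusted p = 0.0597). Without control replicate 3, a setting added after seeing the data, Hormad1 fell by 1.01 on the log2 scale (SE 0.08, edgeR adjusted p = 1.573e-10), and without any other single library it did not pass (adjusted p = 0.126 to 0.18). It also passed with DESeq2, RLE scaling, no filter on low counts, the replicate block and the Sertoli scaling (adjusted p = 0.00055 to 0.0493). Hormad1 did not pass with upper-quartile scaling, library size only, limma-voom or a filter of at least 1 CPM on average (adjusted p = 0.0633 to 0.361). Whether sequence linked to the SFB allele of Hormad1 bears on Ctsk or Ctss was not tested.

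**Figure D2:**
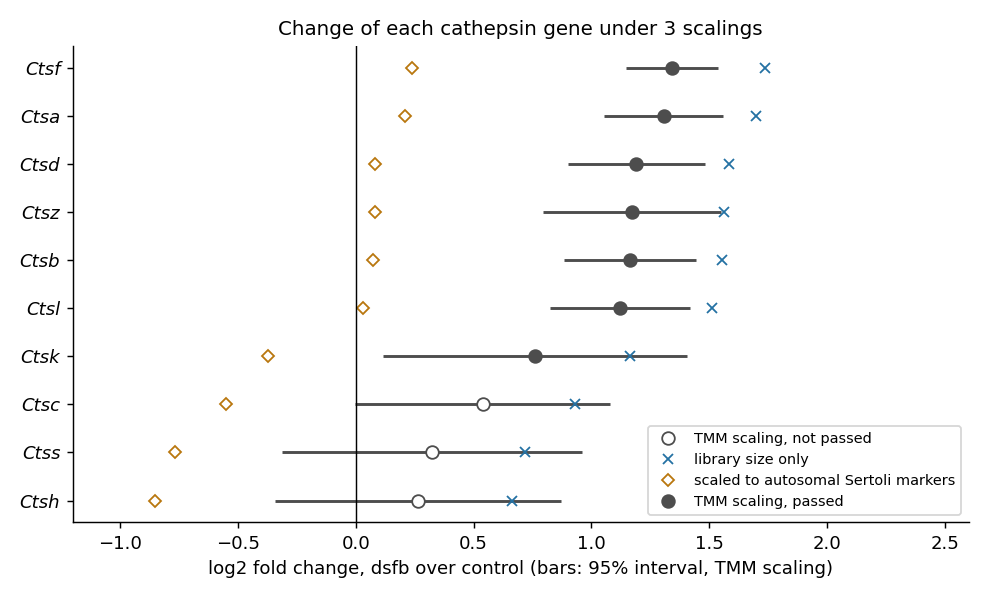
Log2 fold change of each cathepsin gene (dsfb over control, horizontal axis) with TMM scaling (circles with 95% intervals, filled where the gene passed), with library size as the only scaling (crosses) and with scaling to autosomal Sertoli markers (diamonds). Under the Sertoli scaling Ctsf, Ctsa, Ctsd, Ctsz, Ctsb and Ctsl lie between 0.03 and 0.24, and Ctsk, Ctsc, Ctss and Ctsh lie below 0.

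Other scalings gave other sizes and other counts. With library size only, which moved the median of all genes by 0.40, 9 of the 10 genes rose, and with upper-quartile scaling, which moved it by 0.28, 8 rose. A change of scaling shifts all genes nearly alike, so that distances from the median of all tested genes are almost fixed by construction and are given only as a description. Ctsl lay 1.10 to 1.12 log2 units above that median over the 5 scalings and Ctsf 1.32 to 1.33 higher. The corresponding ranges were 0.52 to 0.54 for Ctsc, 0.31 to 0.33 for Ctss and 0.24 to 0.25 for Ctsh.

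The share of each gene in the summed level of the 10 cathepsins needs no scaling between libraries. The sum was 906, 747 and 716 CPM in control, against 1672, 1836 and 1693 CPM in dsfb, 2.20 times as much. An exact two-sided permutation test over libraries gave p = 0.1, the smallest value that 3 against 3 allows. Without Ctsl the ratio was 2.24. Unlike the shares, the sums depend on scaling, and with library size only the ratio for the 10 genes was 2.88. Ctsl supplied 64.1 to 67.4% of the sum in control and 64.2 to 67.1% in dsfb. The shares of Ctsb, Ctsd, Ctsf, Ctsk and Ctsz also overlapped between the groups. Of these, the mean share in dsfb was 1.15 (Ctsf) and 0.758 (Ctsk) times that in control.

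The shares of Ctsc, Ctsh and Ctss were smaller in dsfb. Ctss made up 1.16, 0.968 and 1.15% of the sum in control replicates 1, 2 and 3 and 0.598, 0.428 and 0.861% in dsfb replicates 1, 2 and 3. The share of Ctsh was 0.653, 0.575 and 0.913% in control and 0.307, 0.366 and 0.488% in dsfb, and that of Ctsc was 1.33, 1.06 and 1.31% in control and 0.841, 0.619 and 1.01% in dsfb. For each of these 3 genes every dsfb library lay below every control library, and the mean share in dsfb was 0.669 (Ctsc), 0.542 (Ctsh) and 0.576 (Ctss) times that in control. The share of Ctsa was 1.13 times as large in dsfb, again with groups that did not overlap, although dsfb replicate 2 and control replicate 2 both printed as 3.76%. The exact two-sided permutation p was 0.1 for each of these 4 genes and 0.25 after Benjamini-Hochberg adjustment over the 10 genes. A design of 3 against 3 cannot go below 0.1. A gene that rises less than the sum must lose share, so the shares largely restate the fold changes given above. The planned permutation test covered the summed level only, and the tests of shares were added to it.

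**Figure D3:**
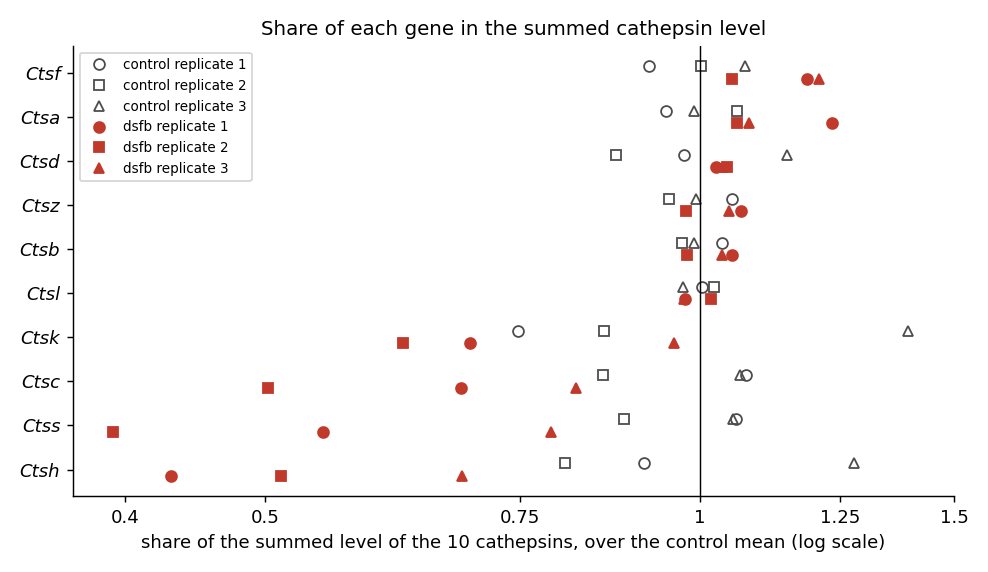
Share of each gene in the summed level of the 10 cathepsins, divided by its mean share in control (log axis), for each control (open) and dsfb (filled) library. Ctsh, Ctss and Ctsc sit to the left in dsfb, at 0.542, 0.576 and 0.669 times the control mean on average, and Ctsl, Ctsb, Ctsz and Ctsd stay close to 1.

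Compared with each other, the genes covered a wide span of levels. Per kilobase of merged exons, Ctsl was the highest in control at 80.2 ± 11.02 CPM per kilobase (SD, n = 3), followed by Ctsd at 22.3 ± 3.37, Ctsb at 17.1 ± 2.75, Ctsf at 9.36 ± 0.54, Ctsz at 8.05 ± 1.42, Ctss at 6.37 ± 1.22, Ctsa at 5.91 ± 0.56, Ctsc at 1.68 ± 0.36, Ctsk at 1.61 ± 0.41 and Ctsh at 1.24 ± 0.26. Ctsl was above every other member in every library. The libraries of the neighbours Ctsd and Ctsb overlapped, as did those in the run from Ctsf through Ctsz and Ctss to Ctsa and those in the run from Ctsc through Ctsk to Ctsh. In dsfb the order was the same except that Ctsa moved above Ctss and Ctsk above Ctsc, and of all neighbours only Ctsk and Ctsc overlapped. By this measure Ctsl exceeded 96.6% of tested genes in control and 99.6% in dsfb, and Ctsh exceeded 27.7% and 38.4%.

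These levels rest on the length assumed for each transcript and on how reads in shared exons were counted, which is not stated. The exons of Ctsd share 34.4% of their length with Gm49369 on the same strand. Those of Ctsl share 26.9% with Gm47123 on the opposite strand and 6.09% with Gm49230 on the same strand. All of these overlapping genes were at 0 CPM in every library. The merged exons of Ctsl span 6489 bases because long and intron-retaining forms are annotated. With the longest transcript Ctsf was at 22.5 CPM per kilobase in control, above Ctsb at 21.8 with overlapping libraries, and in dsfb at 57.1, above Ctsd at 56.2, again with overlap. With the shortest transcript that APPRIS tags as principal, a choice made after the data had been seen, Ctsl was at 264 CPM per kilobase in control and Ctsf at 23.8, which put Ctsf above Ctsb with overlapping libraries. Fold changes between the groups do not depend on length.

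The other genes of the pathway were read from lists. The counts in each list stand beside 30.7% of all tested genes that rose and 36.2% that fell. Outside the 10 genes the table held 14 further cathepsin family genes, among them the placental cathepsins, and 3 of them passed the filter. Ctsg, Ctsj, Ctsm, Ctsq, Ctsr, Cts6, Cts7 and Cts8 had 0 reads in all 6 libraries. Ctso, a cysteine protease found in most tissues, rose 2.00-fold from 27.5 ± 4.47 to 54.9 ± 2.00 CPM (edgeR adjusted p = 0.000471). Ctsw, a protease of cytotoxic lymphocytes that overlaps Fibp on the opposite strand, was at 1.03 and 2.20 CPM and rose 2.13-fold (edgeR adjusted p = 0.0229), with 1 gene of the list rising in place of 2 with DESeq2, with no filter on low counts, without control replicate 1 or 2, or without dsfb replicate 1 or 3. Napsa, an aspartic protease related to cathepsin D, fell from 2.67 ± 0.83 to 0.0869 ± 0.105 CPM (5 reads in dsfb, edgeR adjusted p = 0.000555) and overlaps another gene on the opposite strand.

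Cystatins and related genes, a group that includes inhibitors of cysteine cathepsins, were read as the cystatin list. Whether each of these genes encodes an active inhibitor was not examined. Of 6 tested genes of the list 4 rose and 0 fell by edgeR (median log2 fold change 0.57). The counts were the same at an unadjusted p under 0.05 and with DESeq2 and limma-voom. Cst3, which encodes the secreted inhibitor cystatin C, rose 1.83-fold from 171 ± 30.1 to 313 ± 10.7 CPM (edgeR adjusted p = 0.000823). Cstb, the cytosolic cystatin B, rose 1.64-fold. The testis cystatin genes Cst12 and Cst9 rose 1.56-fold and 1.41-fold (edgeR adjusted p = 0.0141 and 0.0318). Without dsfb replicate 2, 2 of 7 tested genes of the list rose.

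Genes that sort and activate lysosomal enzymes rose almost throughout. Of 11 genes 10 rose and 1 fell (median log2 fold change 0.80). Lgmn encodes legumain, the asparaginyl endopeptidase that processes several cathepsins, and rose 2.35-fold from 94.8 ± 11.7 to 223 ± 7.83 CPM (edgeR adjusted p = 4.1e-05). Psap, the precursor of the saposins, rose 2.00-fold to 960 ± 47.0 CPM, and Nagpa, which uncovers the mannose-6-phosphate tag, rose 2.21-fold. The member that fell was Cln6, an endoplasmic reticulum protein that helps export lysosomal enzymes, from 51.0 ± 10.4 to 14.8 ± 1.74 CPM (log2 -1.79, edgeR adjusted p = 9.5e-05). Cln6 overlaps a gene on the opposite strand.

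Other lysosomal hydrolases moved in the same direction with exceptions. Of 35 genes 23 rose, 4 fell and 8 did not pass (median 0.78). Ppt1, which removes palmitate from proteins, rose 2.19-fold from 251 ± 16.6 to 550 ± 20.4 CPM, and Gaa, the acid alpha-glucosidase gene, rose 2.09-fold (edgeR adjusted p = 2.8e-05 and 3.1e-05). Arsa, which encodes arylsulfatase A, fell from 215 ± 63.2 to 7.32 ± 1.27 CPM (log2 -4.88, SE 0.25, edgeR adjusted p = 3.0e-06). The other members that fell, named after their values were seen, were Galc (log2 -1.34), Naglu (-0.70) and Hexa (-0.28). Ppt1, Arsa, Galc and Hexa each overlap a gene of the opposite strand.

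Membrane proteins and the proton pump of the lysosome were the remaining structural lists. Of 14 membrane genes 8 rose and 1 fell (median 0.69), and 13 rose with upper-quartile or library-size-only scaling. Lamp1, which encodes the most abundant lysosomal membrane glycoprotein and overlaps a gene on the opposite strand, was the member that fell, from 538 ± 16.4 to 301 ± 12.1 CPM (log2 -0.84, edgeR adjusted p = 8.9e-05). The chloride-proton exchanger Clcn7 and Laptm4b rose 1.74-fold and 1.73-fold, and Npc1, the cholesterol exporter, which overlaps opposite-strand genes, rose 2.12-fold. Among 21 tested genes of the vacuolar ATPase, which acidifies the lumen, 5 rose and 7 fell (median 0.00), against 30.7% and 36.2% of all tested genes. The cytosolic V1 subunits Atp6v1d, Atp6v1a and Atp6v1c1 fell by 1.15, 0.88 and 0.92 on the log2 scale, and the X-linked accessory subunit Atp6ap1 rose 2.69-fold. With library size only 11 of these genes rose and 5 fell, with upper-quartile scaling 10 rose and 5 fell.

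Among 15 tested regulators of lysosomal genes 8 rose and 2 fell (median 0.57), with 12 and 1 under upper-quartile or library-size-only scaling. Tfe3, which encodes the E-box factor named above, rose 2.25-fold from 53.8 ± 5.20 to 121 ± 7.04 CPM (edgeR adjusted p = 4.4e-05), and Rragb, a GTPase of the nutrient-sensing complex, rose 2.04-fold. Both are X-linked, and of 766 tested X-linked genes 567 rose, with a median log2 fold change of 1.03. The 10 cathepsin genes are all autosomal, and the autosomal median was -0.03. The adaptor gene Lamtor1 (overlapping Lrrc51) rose 1.59-fold, and the kinase gene Mtor fell from 387 ± 41.2 to 240 ± 7.20 CPM (log2 -0.69). With scaling to autosomal Sertoli markers 0 genes rose and 5 fell in the sorting list, and 1 rose and 13 fell among the hydrolases. Under this scaling 0 rose and 7 fell in the membrane list, and 2 rose and 16 fell for the vacuolar ATPase. Likewise 0 rose and 9 fell among the regulators, and 0 rose and 2 fell in the cystatin list. Among the other cathepsins 0 rose and 1 fell. At an unadjusted p under 0.05 the rises in these lists, in the same order, were 0, 1, 0, 2, 0, 0 and 0.

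**Figure D4:**
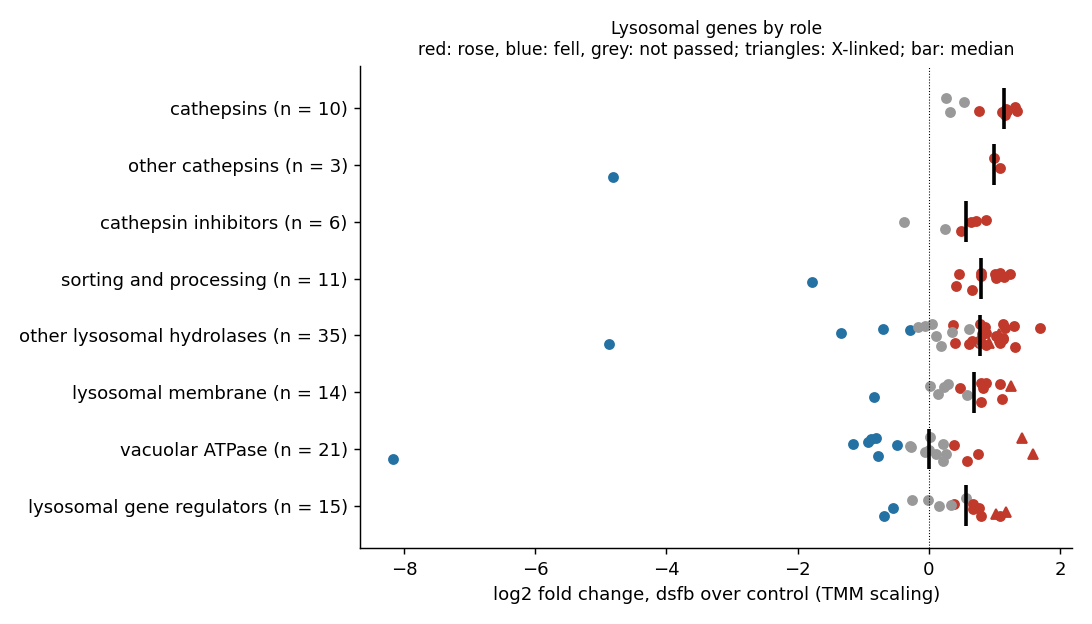
Log2 fold change (dsfb over control, TMM scaling, horizontal axis) of every tested gene in 8 lists of lysosomal genes, coloured by its call, with triangles for X-linked genes and a black bar at the median of each list. The 10 cathepsins cluster around a median of 1.14, whereas the vacuolar ATPase genes lie on both sides of 0; the far left point of that list is Atp6v1e2, with 456 reads in control and 1 read in dsfb (ratio 377, 95% counting interval 67.3 to 14920).

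Sertoli cells and interstitial fibroblasts could supply these transcripts, and most of their markers rose, against 30.7% of all tested genes. All 10 Sertoli markers rose, with a median log2 fold change of 1.06, or 2.08-fold, and the summed level in dsfb was 2.08 times that in control. Among the defining markers Sox9 went from 57.8 ± 12.3 to 113 ± 5.84 CPM, Wt1 from 114 ± 17.4 to 227 ± 19.9 CPM and Amh from 23.0 ± 0.56 to 43.2 ± 3.94 CPM. Of 5 interstitial fibroblast markers 4 rose (median log2 1.15), and their summed level went from a range of 262 to 394 CPM to one of 667 to 710 CPM. With the same TMM scaling the summed cathepsin level differed by 2.20 times between these libraries. The part of these cell types in the cathepsin result was not tested.

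Macrophage markers were less uniform. Of 14 markers 6 rose (against 30.7% of all tested genes), 1 fell and 7 did not pass (median log2 fold change 0.69). Their summed level was 160 to 258 CPM in control and 279 to 382 CPM in dsfb. Aif1, the marker that fell, was at 56.0 CPM in control replicate 3 and at 4.24 and 4.21 CPM in control replicates 1 and 2. Without Aif1, an exclusion made after its values were seen, the sum was 156 to 207 CPM in control and 276 to 379 CPM in dsfb. The defining marker Adgre1 (the F4/80 antigen) was at 7.35, 5.25 and 7.65 CPM in control and at 9.24, 6.08 and 10.8 CPM in dsfb and did not pass (edgeR adjusted p = 0.256). Csf1r, the receptor for the macrophage growth factor, was at 22.3, 15.6 and 26.9 CPM in control and at 34.6, 31.2 and 51.3 CPM in dsfb and rose (edgeR adjusted p = 0.0183), and it overlaps a gene of the opposite strand. Mrc1, the mannose receptor, rose from 60.7 ± 6.42 to 97.1 ± 5.12 CPM.

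Some of these genes shared the order of the libraries, a description chosen after the values were seen. Adgre1, Csf1r, Ctss and Ctsc were all lowest in replicate 2 of each group and highest, over all 6 libraries, in dsfb replicate 3. Ctsl, in contrast, had its highest dsfb value in replicate 2. Among the remaining types, 4 of 7 Leydig markers, 3 of 6 peritubular myoid markers and 2 of 6 endothelial markers rose. Among all tested genes 30.7% rose, so the endothelial count was near that share. Of 6 spermatogonia markers 5 rose (median log2 0.74), and their summed level was 227 to 317 CPM in control and 483 to 541 CPM in dsfb. In contrast, all 6 spermatocyte and all 5 tested spermatid markers fell. Of the 6 lymphocyte and granulocyte markers 2 were tested, at a summed level of 3.10 to 5.38 CPM over all libraries, and the single tested epididymal marker, Rnase10, fell from 4.87 to 5.75 CPM in control to 0 reads in dsfb. The epididymal list summed to 4.87 to 5.84 CPM in control and 0 to 0.102 CPM in dsfb, and its members Lcn5 and Lcn9 had 0 reads in all libraries. The part of any of these in the cathepsin values was not tested.

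**Figure D5:**
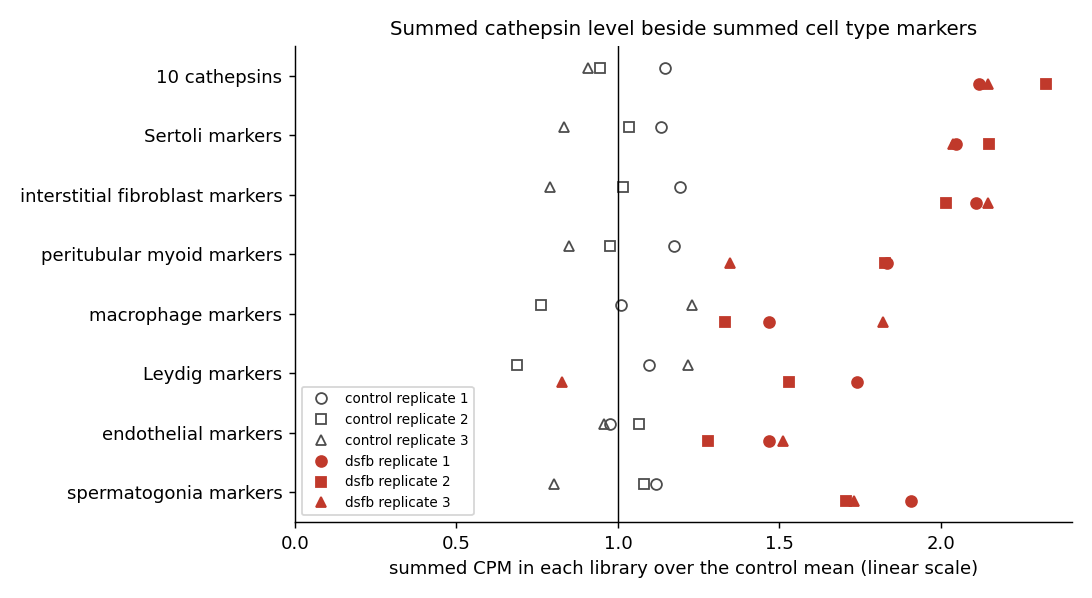
Summed CPM of the 10 cathepsins and of the markers of 7 cell types in each library, divided by the control mean of the same sum (linear axis), with open symbols for control and filled symbols for dsfb. The dsfb libraries lie above all control libraries for the cathepsin sum and for every marker sum shown except that of Leydig cells. The Leydig sums of the groups overlap.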

How the data were processed

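Polyadenylated RNA of 6 testes samples (3 control, 3 dsfb) was analysed from raw gene counts deposited by the authors (unit counts), 1 column per library and all columns used. The submitters' processing notes name STAR 2.6.0 and the build mm10. For the counting tool, its annotation and strand setting nothing is stated in these sources, so reads of genes overlapping on opposite strands cannot be told apart. Symbols, positions and lengths came from GENCODE M21 (GRCm38), which held 55227 of 55487 identifiers. Of 224 listed symbols 222 matched (not Csta2 and Csta3).

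The whole table was fitted with edgeR 4.0.16 in R 4.3.3 (filterByExpr, TMM, glmQLFit and glmQLFTest, group as the only term). P-values were adjusted by Benjamini-Hochberg over 19826 genes, threshold 0.05. The SE was derived from the F statistic, and 95% intervals use the t quantile of the fit. CPM are TMM-scaled. In simulated counts 26 of 67 genes with a 2-fold change were called, as were 54 of 66 with a 4-fold change and 11 of 19626 without change. The simulation changed 200 genes in either direction and left the others equal between the groups. In the data 66.9% of tested genes were called, so the simulation cannot show how scaling performs under such a wide shift. Libraries of a group differed by more than sampling noise in every pair (chi-square per degree of freedom 3.82 to 65).

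The members and lists were chosen with earlier results of these data known. Genes named were the 10 members, up to 4 genes per pathway list with the smallest p and the first 3 markers per cell type, of which 1 hydrolase is not reported here; Neu1, Glb1 and other names given as chosen later fall outside this rule. Alternatives were 4 scalings (upper quartile, RLE, library size alone, Sertoli markers), 2 other filters (no filter beyond 1 read, a mean of at least 1 CPM), DESeq2 1.42.0, limma-voom (limma 3.58.1), a replicate block, leaving out each library, and other transcript lengths, of which the principal transcript was added after seeing the data.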

Additional observations from a re-analysis of the deposited data

How the results depend on the processing

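The count of cathepsin genes that rose stayed between 6 and 9 of 10 under all alternatives except the scaling to autosomal Sertoli markers, which gave 0 rises and 2 falls; leaving out 1 library gave 6 to 8 rises and 0 falls. That scaling sets the level of 9 autosomal Sertoli markers, all higher in dsfb, equal between libraries, and so lowers the fold change of every gene by construction. Under it the log2 fold change reversed to -0.55 for Ctsc, -0.85 for Ctsh, -0.37 for Ctsk and -0.77 for Ctss. No other alternative turned the direction of any of the 10 genes. Over all tested genes 6080 rose and 7176 fell (45.9% of calls higher), against 8936 and 5732 with library size only (60.9%), 4869 and 8839 with no filter (35.5%), 8187 and 6126 with upper-quartile scaling (57.2%) and 215 and 12806 with the Sertoli scaling (1.65%). Same-numbered libraries of the groups deviated together only weakly (r = 0.067, 0.0549 and 0.11), though each correlated best with its own number, so the numbers were not taken as pairs. With the replicate block 8 of the 10 genes rose, Ctsc being added (log2 0.54, edgeR adjusted p = 0.0364). Depth limits the genes with few reads: Ctsk and Ctsh rest on 46 to 153 reads per library.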

Other observations

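Further pathway genes that rose, named here after their values were seen, included receptors, hydrolases and a regulator. The 4 hydrolases that fell are named above. Igf2r and M6pr, which encode the mannose-6-phosphate receptors that carry the enzymes, rose by 1.09 and 0.66 on the log2 scale, and Gnptab, which starts the mannose-6-phosphate tag, by 0.80 (edgeR adjusted p = 0.000242, 0.000502 and 0.000862). Smpd1, the acid sphingomyelinase gene, rose from 11.3 to 36.5 CPM (log2 1.70), and Tpp1, a tripeptidyl peptidase gene, from 22.3 to 55.5 CPM (log2 1.32). Tfeb, the autosomal relative of Tfe3, rose by 0.79 (edgeR adjusted p = 0.00102).

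The E-box letters CACGTG were in a promoter window of 4 of 8 sorting genes, 7 of 28 hydrolase genes, 4 of 12 membrane genes and 4 of 18 vacuolar ATPase genes, against 10.8% of tested genes. The haemoglobin genes summed to 213 and 208 CPM in control replicates 1 and 2 and to 11.6 CPM in control replicate 3, and to 318 and 295 CPM in dsfb replicates 1 and 2 and to 35.6 CPM in dsfb replicate 3.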
